A study of Mus musculus with 4 samples.

Results

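The sarcomeric myosin heavy chain genes of the mouse were followed across 4 RNA sequencing libraries of C2C12 cells, a line of mouse myoblasts whose cells fuse into multinucleate myotubes once serum is withdrawn. The 9 members, Myh3, Myh8, Myh1, Myh2, Myh4, Myh13, Myh7, Myh6 and Myh7b, were taken by gene symbol and were all listed, as 9 of 24850 entries with a gene symbol in the tables of total RNA and 9 of 24992 in the tables of polyA RNA. Total RNA depleted of ribosomal RNA was sequenced with its strand from proliferating myoblasts, named MB (time label -24 h relative to differentiation medium), and from cells labelled as 72 h in that medium, named MT; a legend of the paper gives a shorter time for MT, which is not resolved here. PolyA RNA was sequenced from cells that had received a control siRNA (si-NC) or an siRNA against hnRNPL (si-hnRNPL), an RNA-binding protein encoded by Hnrnpl, and had spent 48 h in differentiation medium. The cell line was the same in all 4 libraries and carried no other genetic change in the labels. Each condition was 1 library, so differences could not be checked against replicates and carry no p-value. Levels are FPKM, fragments scaled to transcript length and to the number of mapped fragments, and the range after a level is the 95% interval of the deposited tables, which covers counting and assignment of fragments within 1 library.

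A sarcomeric myosin heavy chain carries an ATP-driven motor head and a long coiled-coil tail that packs into the thick filament, and the pull of these heads on actin shortens the sarcomere. The isoforms differ in how fast they turn over ATP, and a fibre is typed by the isoform it holds. Skeletal muscle first makes embryonic (Myh3) and perinatal (Myh8) chains. The adult fast chains IIX (Myh1), IIA (Myh2) and IIB (Myh4) replace them after birth. Myh7 encodes the slow chain, also called beta, which the heart uses beside the alpha chain of Myh6. Myh13 is known from the muscles that move the eye, and Myh7b is an ancient relative that hosts a microRNA.

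Because the isoforms are alike in part of their sequence, the stretch of coding sequence that encodes the P-loop of the motor head, where ATP is held, is printed first. It is 1 example of what a sequenced fragment could tell apart, and values for whole transcripts follow. The 60 bases start at the glycine of the loop in each gene, and capitals mark the bases that differ from Myh3. In Myh3 they lie in exon 7 of 41, at chr11:66897253-66897312 on the plus strand of mm9, and in Myh7 in exon 8 of 41, at chr14:55609977-55610036 on the minus strand.
Myh3: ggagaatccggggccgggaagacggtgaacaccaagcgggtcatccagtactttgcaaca
Myh8: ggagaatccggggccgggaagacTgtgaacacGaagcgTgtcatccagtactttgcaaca
Myh1: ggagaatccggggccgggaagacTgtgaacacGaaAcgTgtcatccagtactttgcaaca
Myh2: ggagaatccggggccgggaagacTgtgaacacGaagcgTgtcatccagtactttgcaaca
Myh4: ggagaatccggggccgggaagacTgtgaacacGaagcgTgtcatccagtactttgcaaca
Myh13: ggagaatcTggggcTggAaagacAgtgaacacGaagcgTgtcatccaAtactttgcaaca
Myh7: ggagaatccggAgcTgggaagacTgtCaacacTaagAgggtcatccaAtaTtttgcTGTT
Myh6: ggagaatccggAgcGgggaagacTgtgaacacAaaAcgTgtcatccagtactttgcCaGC
Myh7b: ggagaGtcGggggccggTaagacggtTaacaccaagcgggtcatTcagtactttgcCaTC
Over these bases Myh8, Myh2 and Myh4 were identical and Myh1 differed from them at 1 base, whereas Myh3 differed from those 4 genes at 3 or 4 bases and from Myh7 at 12. Over the whole coding sequence the identity of the 36 pairs ran from 67.9% to 91.6% with a median of 77.6%. The closest pair was Myh7 with Myh6 at 91.6%, followed by Myh1 with Myh2 at 90.9% and Myh1 with Myh4 at 90.1%. Myh3 was set apart from the other developmental and fast genes, since its closest relative, Myh2, shared 81.0% of its coding bases. Of the 36-base windows of each transcript, 36 bases being the shortest read the study kept, 91.5% were found in no other gene for Myh3, 88.1% for Myh13 and 100% for Myh7b. The share was 64.6% for Myh1, 65.05% for Myh2, 71.3% for Myh8, 73.5% for Myh4, 71.2% for Myh7 and 70.5% for Myh6. With 100-base windows the lowest share was 88.5%, in Myh6. Reads of Myh1, Myh2, Myh4 and Myh8, and of Myh6 and Myh7, may therefore have been divided between neighbours when fragments were assigned, and their summed levels are given below beside the single ones.

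**Figure D1:**
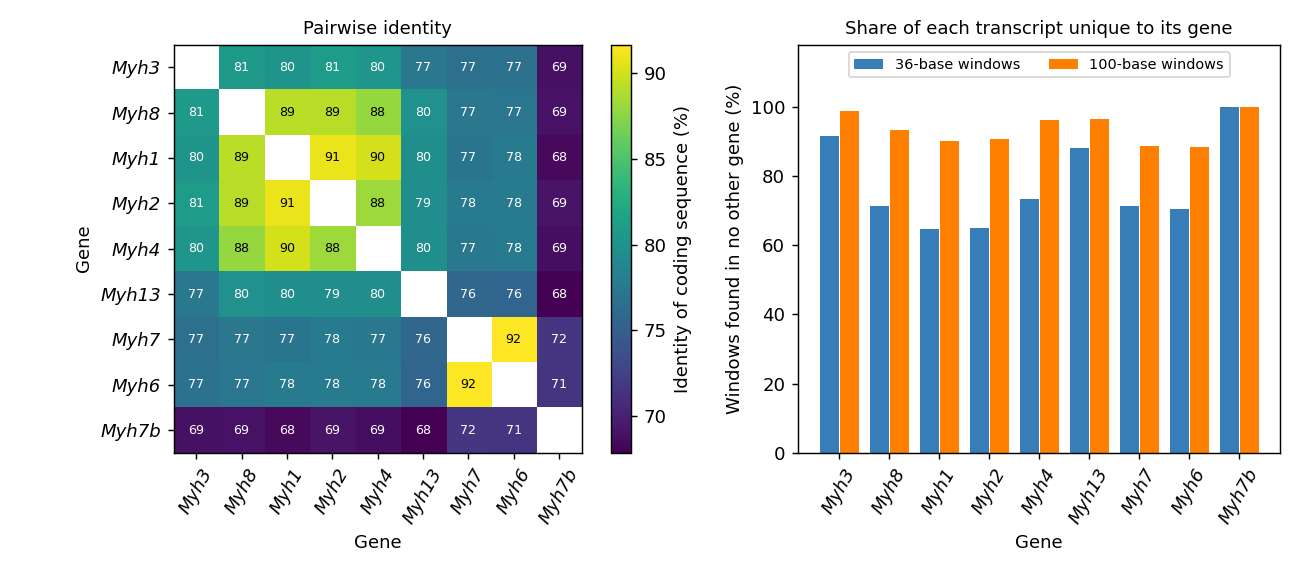
Left, identity of the coding sequence (%) for each pair of the 9 genes. Right, share of 36-base (blue) and 100-base (orange) windows of each gene's transcript found in no other gene (%). The fast and perinatal genes form one block and Myh7 with Myh6 a second, while Myh3 and Myh7b have the transcripts with the fewest shared short windows.

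The members stand at 3 places in the genome. Myh3, Myh2, Myh1, Myh4, Myh8 and Myh13 lie in this order on the plus strand of chromosome 11, within 293203 bp between 66891802 and 67185004 (mm9). Myh6 (55560758 to 55585444) and Myh7 (55589525 to 55613386) follow each other on the minus strand of chromosome 14. Myh7b lies alone on the plus strand of chromosome 2, between 155436979 and 155460043. Genes annotated on the opposite strand overlap Myh1, Myh2, Myh7 and Myh7b. Whether strand was used when fragments were assigned is not given in the sources used here, so reads of these 4 genes and of their antisense partners cannot be told apart.

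The 250 bases before the transcription start (RefSeq, GRCm38.p6, plus strand, 5′ to 3′) are printed for the embryonic gene and for the 3 cluster genes whose windows, after the search, were seen to share a motif. Capitals mark E-boxes, CANNTG, which bind MyoD and its relatives among other factors, and matches to the MEF2 box, the motif of the myocyte enhancer factors, searched on both strands. They lie at chr11:67078050-67078299 for Myh3, chr11:67276874-67277123 for Myh8, chr11:67199852-67200101 for Myh1 and chr11:67237562-67237811 for Myh4.
Myh3: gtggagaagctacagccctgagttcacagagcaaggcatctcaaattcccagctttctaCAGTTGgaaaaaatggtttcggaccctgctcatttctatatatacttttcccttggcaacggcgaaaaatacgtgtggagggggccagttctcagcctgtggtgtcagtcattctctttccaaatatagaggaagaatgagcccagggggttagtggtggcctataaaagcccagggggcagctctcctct
Myh8: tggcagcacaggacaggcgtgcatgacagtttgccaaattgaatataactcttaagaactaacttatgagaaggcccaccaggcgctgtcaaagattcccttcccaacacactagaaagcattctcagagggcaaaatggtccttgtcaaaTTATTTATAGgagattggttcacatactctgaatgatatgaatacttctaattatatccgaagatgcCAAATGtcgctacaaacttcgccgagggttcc
Myh1: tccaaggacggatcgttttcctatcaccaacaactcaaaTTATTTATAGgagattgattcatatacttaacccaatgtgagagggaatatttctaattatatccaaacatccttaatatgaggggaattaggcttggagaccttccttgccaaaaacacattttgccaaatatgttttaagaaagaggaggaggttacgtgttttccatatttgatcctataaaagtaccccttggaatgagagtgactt
Myh4: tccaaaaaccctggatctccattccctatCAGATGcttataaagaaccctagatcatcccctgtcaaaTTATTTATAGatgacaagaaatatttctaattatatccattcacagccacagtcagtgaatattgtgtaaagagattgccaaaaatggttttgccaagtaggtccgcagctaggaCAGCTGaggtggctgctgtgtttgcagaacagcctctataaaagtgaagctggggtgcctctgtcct
The letters ttatttatag stood 99 bases before the start of Myh8, 211 before that of Myh1 and 182 before that of Myh4. A MEF2 box was thus found in 3 of the 9 members, against 1.69% of 32851 mouse promoter windows of the same length, and each overlapped a TATA box match (TATAAA) on the other strand. The 3 matches are the same letters in genes of 1 cluster with similar coding sequences, so they may not be 3 independent finds beside that rate. An E-box was found in 7 of 9 members, against 66.2% of all windows, and the windows of Myh1 and Myh2 held none. Of the other motifs searched, CATTCC (the MCAT element) was in 4 members against 12.6%, TATAAA in 4 against 12.4%, and the CArG box in Myh4 alone against 1.47%. These matches describe letters in a window of fixed length and are not binding sites.

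In proliferating myoblasts the whole family was close to silent. The summed FPKM of the 9 members was 0.251 (0.205 to 0.297), resting on about 121 fragments, and no member reached 1 FPKM. Myh3 stood at 0.101 FPKM (0.0724 to 0.130) and Myh1 at 0.0834 (0.0572 to 0.110), and these 2 intervals overlapped. Myh7 was listed at 0.0256 FPKM (0.0108 to 0.0404) and Myh7b at 0.0242 (0.0102 to 0.0382). The end of Trpc4ap, a gene with many reads and listed at 35.95 FPKM in MB, overlaps the end of Myh7b on the opposite strand, and the part of such reads in the value of Myh7b was not tested. The other 5 members rested on 4 fragments or fewer, with Myh13 at 0.00853 FPKM, Myh6 at 0.00309, Myh2 at 0.00306, Myh8 at 0.00202 and Myh4 listed at 0. Only between Myh1 and Myh7 did neighbours in the order of levels have separate intervals.

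In MT the family summed to 176.3 FPKM (175.1 to 177.4), a difference from MB of 7.15 (7.09 to 7.20) on the scale of log2(FPKM + 1) and a ratio of 701 (584 to 842). Of the 9 members, 7 passed a log2 change of 0.58, the fold of 1.5 used in the study, and 0 fell past it, while 7.81% of all named entries were higher by this measure and 13.7% lower. The median change of the members was 1.86, beside 0 for all named entries and -0.23 for the 10791 named genes with at least 1 FPKM in both libraries. In bulk RNA, fewer cells that make a transcript and less of it per cell cannot be told apart.

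The embryonic chain led. Myh3 went from 0.101 FPKM in MB to 120.8 FPKM (119.9 to 121.8) in MT, a log2 change of 6.79 (6.75 to 6.83) and a ratio of 1192 (896 to 1586). Of all 24850 named entries, 8 (0.0322%), Myh3 included, had a change at least as large. The perinatal chain was far lower in MT, Myh8 standing at 5.24 FPKM (5.04 to 5.44) with a log2 change of 2.64, so that Myh3 exceeded it 23.1 times (22.2 to 24.0). For Myh8, whose MB value rested on 1 fragment, no ratio between the libraries is given.

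Among the adult fast chains, Myh1 was well above the others. It went from 0.0834 FPKM to 38.9 FPKM (38.4 to 39.5), a log2 change of 5.20 (5.16 to 5.24) and a ratio of 467 (341 to 639). Myh4 stood at 2.63 FPKM (2.49 to 2.77) in MT and Myh2 at 2.41 (2.28 to 2.55), with log2 changes of 1.86 and 1.77. The intervals of these IIB and IIA chains overlapped, so their order is not set, and against 0 or 1.5 fragments in MB neither has a ratio. Summed over the similar genes Myh1, Myh2, Myh4 and Myh8, the level went from 0.0885 FPKM to 49.2 FPKM, a ratio of 556 (410 to 755), which does not depend on how reads were split among these 4 genes. The extraocular chain Myh13 reached 0.346 FPKM (0.293 to 0.399), a log2 change of 0.42 that did not pass the threshold.

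Of the slow and cardiac chains, Myh7 was the highest. It went from 0.0256 FPKM to 4.77 FPKM (4.58 to 4.96), a log2 change of 2.49 (2.44 to 2.54) and a ratio of 186 (105 to 332). Myh6 stood at 0.705 FPKM (0.630 to 0.779) in MT with a log2 change of 0.77 (0.70 to 0.83). Myh7b stood at 0.376 FPKM (0.322 to 0.430), and its log2 change of 0.43 did not pass the threshold although its FPKM was 15.5 times (8.56 to 28.1) that in MB. The pseudocount of 1 holds down the change of genes under 1 FPKM, and the FPKM intervals of all 9 members, Myh7b and Myh13 included, were separate between MB and MT. Separate intervals were not counted over all named entries, so no share stands beside this. Of 5 cardiac muscle markers, 1 passed the threshold, the troponin gene Tnni3 (0.145 to 2.54 FPKM), while Nppa stood at 0.0686 FPKM in MT and Myl7 was listed at 0. Nppb (1.63 to 0.850 FPKM) and Nkx2-5 (0.778 to 0.287 FPKM) were lower in MT, short of the threshold.

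**Figure D2:**
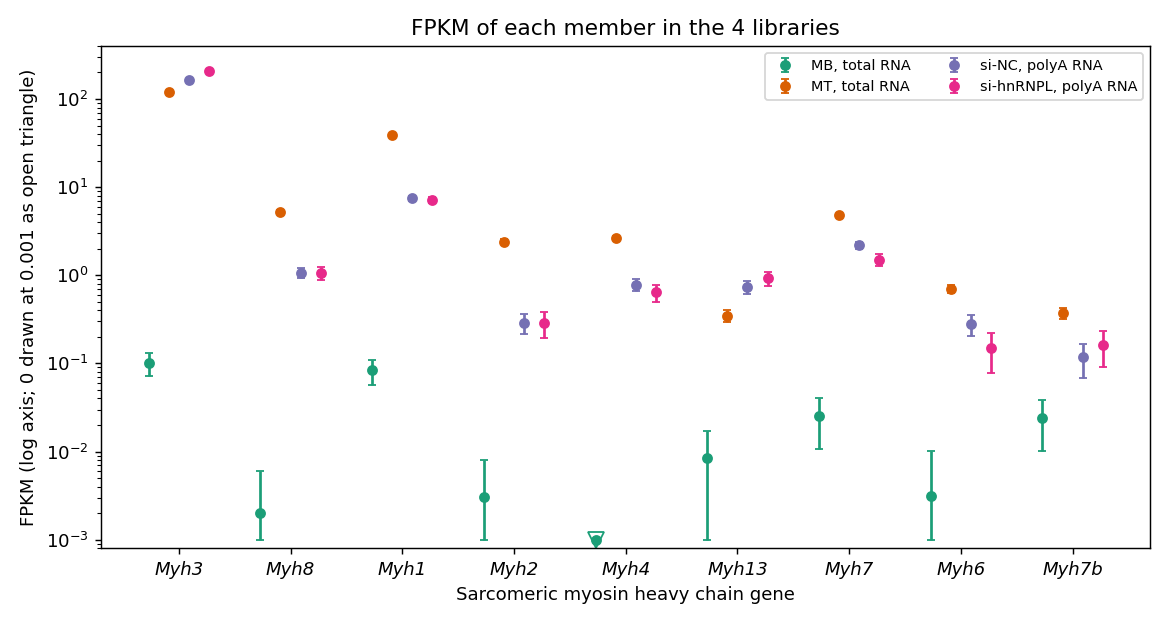
FPKM of each member (log axis) in the 4 libraries, with the 95% interval of the deposited tables as bars, 1 library per point. All points of MB lie at or below 0.101, Myh3 lies above 100 in the other libraries, and Myh4 is listed at 0 in MB (open triangle at the foot of the axis).

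The composition of the family moved from a mixed trace to one led by Myh3. In MB, Myh3 held 40.3% of the summed FPKM (31.4 to 49.3) and Myh1 33.2%. In MT the share of Myh3 was 68.6% (68.2 to 68.9) and that of Myh1 22.1% (21.8 to 22.4). Together the developmental chains held 71.5% of the sum in MT, the adult fast chains 24.95%, the slow and cardiac chains 3.32% and Myh13 0.196%. Since the MB shares rest on about 121 fragments in all, that composition is known only roughly. Among the 8 members other than Myh3, Myh1 held 70.3% of the summed FPKM in MT, Myh8 9.45% and Myh7 8.61%. The order of levels in MT was Myh3, Myh1, Myh8, Myh7, Myh4, Myh2, Myh6, Myh7b and Myh13, and neighbours had separate intervals except Myh4 with Myh2 and Myh7b with Myh13.

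**Figure D3:**
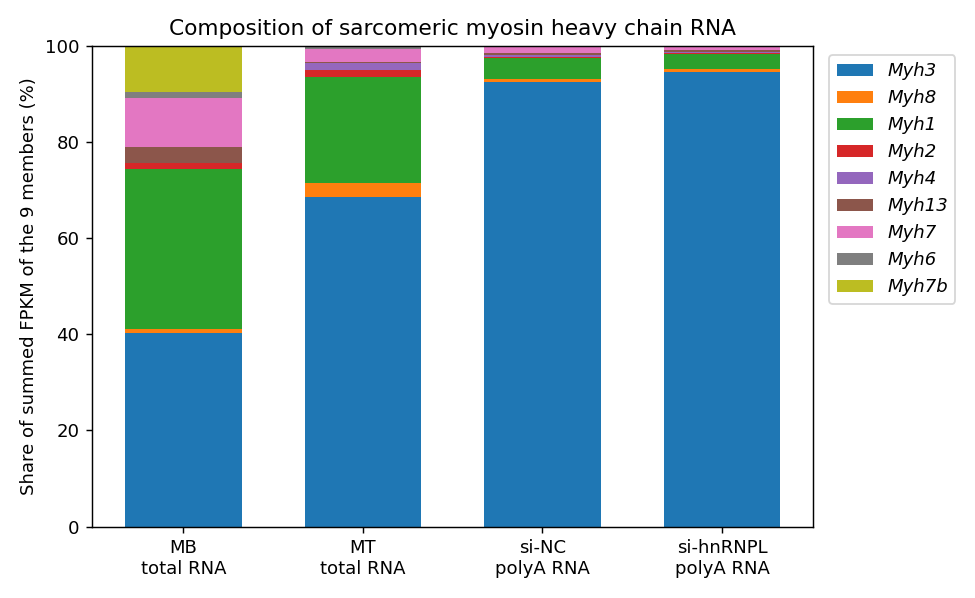
Share of the summed FPKM of the 9 members (%) held by each member in the 4 libraries, as stacked bars that start at 0. Myh3 takes 40.3% in MB, 68.6% in MT, 92.6% in si-NC against 94.6% in si-hnRNPL, and Myh1 is the next share in each; the MB bar stands for a sum of only 0.251 FPKM.

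Within the chromosome 11 cluster the level did not follow the order of the genes. The highest members in MT, Myh3 and Myh1, are separated by Myh2, which stood at 2.41 FPKM. The tables of total RNA also list transcription units that the assembly placed between genes and that carry no gene symbol. Of such units, 3 lay between members, nearest to Myh3, at 0.296 to 0.851 FPKM in MT, and 2 of them were listed at 0 in MB. A further unit of 755 bases inside the span of Myh2 went from 0 to 0.366 FPKM. The annotated RNA 2310065F04Rik, between Myh3 and Myh2 on the opposite strand, was listed at 0 in MB and at 0.130 FPKM (0.0819 to 0.179) in MT. These levels were under 1% of that of Myh3. The paper describes a super-enhancer, a cluster of enhancers, found at these Myh genes in myotubes and transcribed in both directions during differentiation. Whether the units listed here belong to it was not tested. Mir208a, Mir208b and Mir499, the microRNA genes inside Myh6, Myh7 and Myh7b, were listed at 0 in all 4 libraries. Neither kind of library was made for small RNA, so these values do not give the level of the microRNAs.

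**Figure D4:**
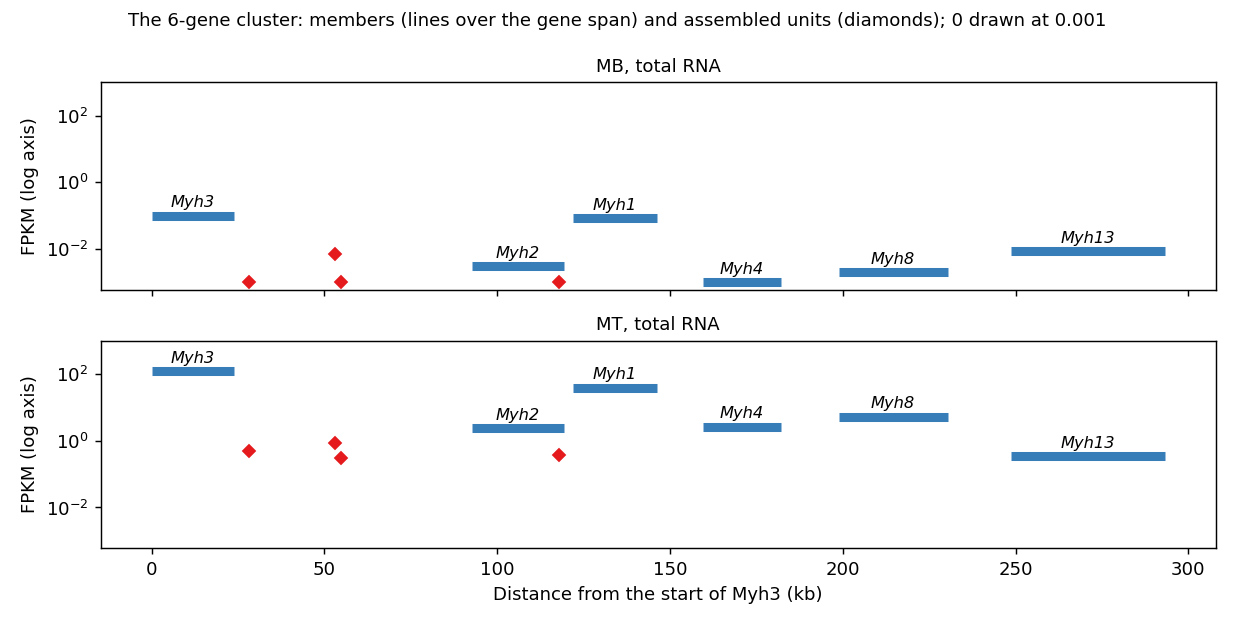
FPKM (log axis) of the 6 members of the chromosome 11 cluster as lines over each gene's span, and of 4 assembled units without a gene symbol as diamonds, against the distance from the start of Myh3 (kb), in MB (top) and MT (bottom); values of 0 are drawn at 0.001. Each of the 6 members is higher in MT, and Myh3 and Myh1 stand above the genes around them.

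Genes that work with the heavy chains were described by lists. Of 12 thick filament partners and chaperones of myosin, 9 were higher in MT and 1 lower, with a median log2 change of 3.30. Mybph, a myosin-binding protein, went from 0.145 to 185.0 FPKM, and the myosin chaperone Unc45b from 0.0142 to 14.4 FPKM. The member that was lower was Hsp90aa1, a general chaperone (314.9 to 191.2 FPKM). Fast isoform genes of other sarcomere and calcium proteins were higher in 9 of 10 cases with a median of 6.17, and slow isoform genes in 6 of 9 with a median of 4.37, Tpm3 being lower. In MT the fast and slow troponins lay within a few fold of each other: Tnnt3 stood at 294.9 FPKM and its slow counterpart Tnnt1 at 224.4, Tnni2 at 175.2 and slow Tnni1 at 284.6, and Tnnc2 at 211.2 and slow Tnnc1 at 451.1. The light chains that bind the heavy chains lay farther apart, the fast Myl1 at 302.1 FPKM and Mylpf at 528.2 and the slow Myl2 at 3.37 and Myl3 at 0.0311. Non-sarcomeric heavy chains of the cytoskeleton went the other way or stayed short of the threshold: Myh10 went from 24.2 to 9.86 FPKM, Myh9 from 208.3 to 140.4, and 0 of 4 were higher. Of 13 regulators of fibre type 4 were higher, among them Mef2c (0.0732 to 4.004 FPKM), and Nfatc1 was lower (4.47 to 2.44 FPKM). The markers of differentiated muscle were higher in 4 of 4 listed cases and their summed FPKM went from 13.3 to 953.5, the 3 markers of proliferating cells fell from 328.5 to 58.6 in sum, and the 4 markers of other cell types stayed at or under 0.0408 in sum.

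The 5 genes whose change over the 4 libraries was nearest to that of the family sum were chosen by Euclidean distance on log2(FPKM + 1), centred on each gene's mean, among 10924 genes. They were Myl1 (a fast light chain, distance 0.239), Myog (a MyoD relative, 0.410), Casq2 (a calcium store protein, 0.446), Mybph (0.470) and Tnnc2 (fast troponin C, 0.521), beside a median distance of 6.34. Myl1 stood at 0.938 FPKM in MB, 302.1 in MT, 268.9 in si-NC against 415.1 in si-hnRNPL. The distances are over 4 libraries of different kind and describe likeness only.

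The second comparison asked how the family stood after hnRNPL was targeted. Hnrnpl itself was listed at 95.1 FPKM (92.7 to 97.48) in si-NC and, lower, at 85.9 FPKM (83.1 to 88.7) in si-hnRNPL, with intervals that did not overlap, beside 111.0 in MB and 63.0 in MT. As RNA, the target was thus lower by little in the library labelled si-hnRNPL. The paper reports a knockdown of hnRNPL and examined its protein by Western blot, which these libraries do not measure. It also examined myosin heavy chain protein in knockdown cells by staining and Western blot, and states that hnRNPL represses myoblast differentiation. The values below are RNA and were not set against that protein. Directions below are those between the libraries as labelled.

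No member passed the threshold of 0.58 in either direction, 0 higher and 0 lower, while 0.688% of all named entries were higher and 0.416% lower. The summed FPKM was 175.5 (173.6 to 177.4) in si-NC against 220.7 (218.1 to 223.3) in si-hnRNPL, a log2 change of 0.33 (0.31 to 0.35) and a ratio of 1.26 (1.24 to 1.28). Myh3 carried this difference, since without it the sum was 12.99 FPKM in si-NC against 11.8 in si-hnRNPL, a log2 change of -0.12. The median change of the 9 members was -0.0033, beside -0.011 for the 11090 genes with at least 1 FPKM in both libraries.

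Myh3 and Myh7 moved apart. Myh3 stood at 162.5 FPKM (160.7 to 164.3) in si-NC against 208.9 FPKM (206.3 to 211.4) in si-hnRNPL, a log2 change of 0.36 (0.34 to 0.38) and a ratio of 1.29 (1.26 to 1.31). Myh7 stood at 2.19 FPKM (1.96 to 2.42) and 1.5 FPKM (1.28 to 1.72), a log2 change of -0.35 (-0.51 to -0.19) and a ratio of 0.685 (0.572 to 0.820). These were the 2 members whose FPKM intervals were separate between the libraries. How many of all named entries had separate intervals was not counted, so this number has no share to be set beside. The embryonic over slow ratio, Myh3 over Myh7, was 74.2 (66.9 to 82.3) in si-NC against 139 (120 to 161) in si-hnRNPL. Of the expressed genes, 511 (4.61%), Myh3 included, were at least as high in change as Myh3 and 448 (4.04%), Myh7 included, as low as Myh7 or lower.

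The members have messages of about 6 kb, and other expressed genes of that length were lower in si-hnRNPL by their median. Other lengths were not examined, and the part of length in the values of the members was not tested. The 553 other expressed genes with transcripts of 5500 to 6500 bases had a median log2 change of -0.12 (SD 0.17). Against this class, 2 genes (0.362%) were as high as Myh3, and 38 (6.87%) were as low as Myh7 or lower. Relative to the class median the change of Myh3 was 0.48 and that of Myh7 was -0.23.

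The other members did not differ beyond their intervals. Myh1 stood at 7.52 FPKM (7.02 to 8.01) in si-NC against 7.11 (6.56 to 7.66) in si-hnRNPL. Myh8 stood at 1.06 FPKM in both, with intervals of 0.921 to 1.21 and 0.884 to 1.24. Myh4 stood at 0.786 FPKM (0.662 to 0.909) and 0.642 (0.503 to 0.781), and Myh2 at 0.289 (0.214 to 0.365) and 0.290 (0.197 to 0.383). In sum, Myh1, Myh2, Myh4 and Myh8 gave 9.66 FPKM and 9.10 FPKM, a ratio of 0.942 (0.865 to 1.03) that includes 1. Myh13 stood at 0.740 FPKM (0.618 to 0.862) and 0.920 (0.751 to 1.09). Myh7b, at 0.118 FPKM (0.0687 to 0.167) and 0.160 (0.0900 to 0.231), and Myh6, at 0.282 (0.206 to 0.358) and 0.149 (0.0788 to 0.219), were the lowest. For Myh6 the FPKM intervals overlapped, although the ratio of 0.528 had a range of 0.307 to 0.908. Its closest relative Myh7 shares many short windows with it. The pair summed to 2.47 FPKM in si-NC against 1.65 FPKM in si-hnRNPL, a ratio of 0.667 (0.562 to 0.791). The cardiac marker Nppb was also lower, at 3.18 and 1.60 FPKM, and 0 of the other 4 cardiac markers passed the threshold.

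**Figure D5:**
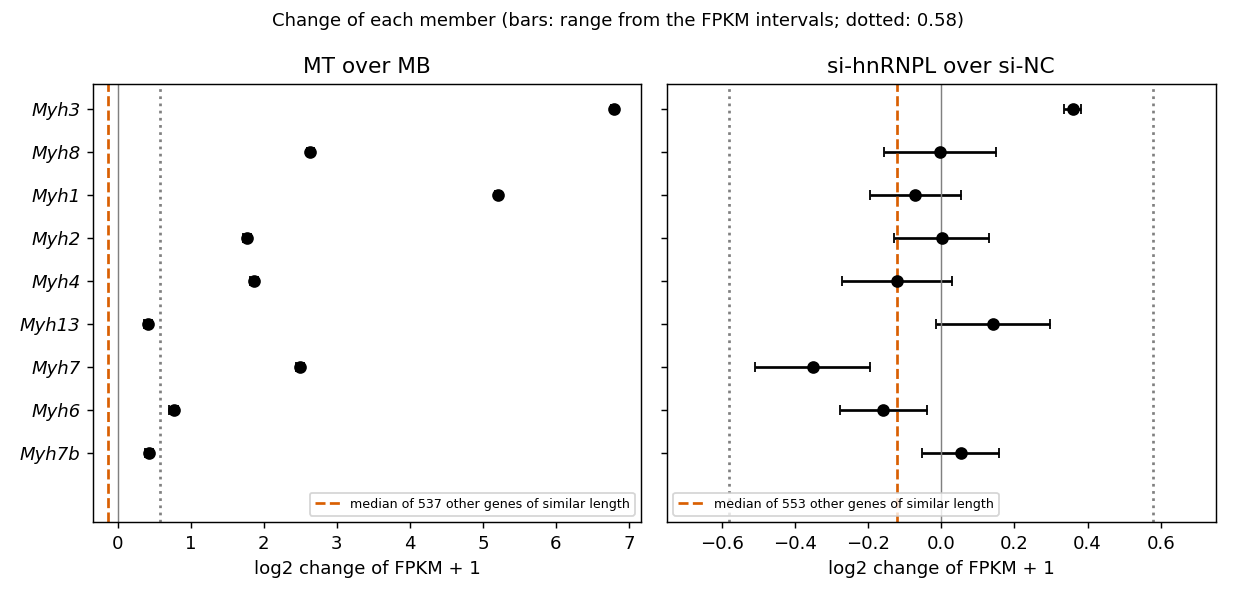
Difference in log2(FPKM + 1) of each member between MT and MB (left) and between si-hnRNPL and si-NC (right), on axes of different range. Bars show the range that follows from the FPKM intervals, dotted lines mark 0.58 (and its negative at right), and dashed lines the median of other expressed genes with transcripts of similar length, -0.13 at left and -0.12 at right. All 9 members lie above 0 at left, while at right Myh3 at 0.36 and Myh7 at -0.35 lie farthest from 0.

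In the polyA libraries Myh3 held nearly all of the family's RNA. Its share of the summed FPKM was 92.6% (92.3 to 92.9) in si-NC against 94.6% (94.3 to 94.9) in si-hnRNPL. Myh1 held 4.28% and 3.22%, and Myh7 held 1.25% (1.12 to 1.38) and 0.680% (0.58 to 0.780). The developmental chains together held 93.2% and 95.1%, the adult fast chains 4.90% and 3.64%, and the slow and cardiac chains 1.48% and 0.820%. In si-NC the order was Myh3, Myh1, Myh7, Myh8, Myh4, Myh13, Myh2, Myh6 and Myh7b, with overlapping intervals between Myh4 and Myh13 and between Myh2 and Myh6. In si-hnRNPL the first 4 places were the same and the intervals of neighbours from Myh8 through Myh13 to Myh4, and from Myh2 through Myh7b to Myh6, overlapped. These libraries differ from MB and MT in RNA fraction, kit and time, so shares are not compared between the 2 kinds.

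Some other muscle genes were higher in si-hnRNPL along with Myh3, and others were lower. Of the 3 markers of the skeletal muscle lineage, 0 passed the threshold. Myf5 stood at 38.5 FPKM in si-NC against 29.0 in si-hnRNPL, while Myod1 (43.6 and 49.0) and Des (411.6 and 472.0) were higher. The 4 listed markers of differentiated muscle summed to 1433 FPKM in si-NC against 2136 FPKM in si-hnRNPL, and 2 of them passed the threshold, Ckm (45.0 and 74.3 FPKM) and Acta1 (1009 and 1537 FPKM). Myog, also among these markers, stood at 174.7 and 249.4 FPKM. It is the second of the 5 genes nearest in profile to the family as well. That choice used the siRNA libraries, so its likeness to the family in them is not a separate result. Markers of proliferating cells were lower, 2 of 3 past the threshold, with Mki67 at 24.3 and 15.5 FPKM. The part of these cell states in the values of Myh3 and Myh7 was not tested. Fast isoform genes had a median log2 change of 0.40 with 3 of 10 past the threshold, slow isoform genes 0.37 with 2 of 9, thick filament partners 0.03 with 1 of 12 (Mybph, 208.9 and 314.6 FPKM), and non-sarcomeric heavy chains -0.04 with 0 of 4. Thus the slow isoform genes as a list had a median above 0 while the slow chain Myh7 was lower, and Tnnc1, a troponin of slow and cardiac muscle, stood at 676.6 and 1047 FPKM. Within that list Tpm3 (183.4 and 162.9 FPKM), Myl2 (0.931 and 0.770), Myl3 (0.0445 and 0) and Atp2a2 (100.7 and 99.4) were also lower, short of the threshold. The rest of the slow list was higher. Among the thick filament partners Ttn (4.81 and 4.20 FPKM) and Hsp90aa1 (375.3 and 350.5) were lower, short of the threshold. So were Mybpc1 (0.326 and 0.222) and Myom1 (8.97 and 8.94). Mybpc3 and Mybphl were listed at 0 in both libraries, and the others were higher. Of 13 regulators of fibre type, 0 passed the threshold, and their median was 0.02.

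The study's PCR primers for myosin heavy chains were placed on the same transcripts, since they define which member such an assay reads. The forward and reverse primers of each pair are printed 5′ to 3′.
Myh2 forward: tcgtttgccagtaagggtct
Myh2 reverse: tgcatctttgctctgaatgg
Myh3 forward: tatcagagtgaggaggacag
Myh3 reverse: tcgctttcatggaccaccat
Each primer matched exactly 1 gene among the annotated coding transcripts. The first pair spans 206 bp of Myh2, and its best places in the other 8 members carried at least 6 mismatches for each primer. The second pair spans 260 bp of Myh3, with at least 3 and 5 mismatches elsewhere in the family. The gene read by the first pair stood at 2.41 FPKM in MT, 1.37% of the family sum, and at 0.289 and 0.290 FPKM in the si-NC and si-hnRNPL libraries. The gene read by the second pair was the highest member in MT, si-NC and si-hnRNPL, while in MB its interval overlapped that of Myh1.

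Depth was not listed in the tables. A number of fragments can be implied from the width of an interval, but uncertain assignment also widens the interval and lowers this number. It therefore stands only roughly for depth and is not a count of reads. These numbers summed to 59960176 in MB, 54442423 in MT, 21341051 in si-NC and, the fewest, 14592480 in si-hnRNPL, fewer in the polyA libraries than in those of total RNA. Members at low levels in MB were nonetheless the least precisely measured, since Myh6 rested there on about 0.755 fragments against 18.1 in si-hnRNPL. An FPKM of 0 says only that no fragment was assigned.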

How the data were processed

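RNA was sequenced in 4 libraries of C2C12 cells, 1 per condition. Per the paper's methods the authors trimmed reads, discarded those shorter than 36 bases, aligned the rest to mm9 with TopHat 2.0.13 and quantified FPKM with Cufflinks 2.1.1. The deposited tables list FPKM with its 95% interval per gene; the annotation is not given in the sources used here. Members were matched by exact symbol; both they and the gene lists were chosen with earlier results of these data known. All 9 members are named, with Hnrnpl, the 5 genes nearest in profile and genes of the lists. Changes are differences of log2(FPKM + 1), with interval half-widths combined in quadrature and a threshold of 0.58. Ratios are given from 10 fragments in both libraries, the fragment number being (2 × FPKM / half-width) squared. This is an effective number, which uncertain assignment lowers. No test was made, and no change was taken between total and polyA libraries; only the profile distances span all 4. Calculations used Python 3.11.15, numpy 2.4.6 and pandas 2.3.3; coding sequences were aligned with MAFFT 7.526. The scripts were tested on simulated data. Other pseudocounts, a centred scale, a threshold of 1, a minimum of 1 FPKM and shares by fragments were tried. Coordinates are mm9, except promoters.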

Additional observations from a re-analysis of the deposited data

How the results depend on the processing

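The size of the change between MB and MT depended on the scale, because most members were near 0 in MB. The log2 change of the summed FPKM, 7.15 as reported, was 8.97 with a pseudocount of 0.1, 9.40 with 0.01 and 7.37 when centred on the median of expressed genes, which lay at -0.23. In alternatives chosen after the data were seen it was 7.27 when centred on transcripts of similar length and 5.62 without Myh3. Members higher in MT numbered 9 with either smaller pseudocount and with centring, and 6 with a threshold of 1 or with at least 1 FPKM in 1 or both libraries. The share of all named entries was taken only as reported (7.81% higher). Counts under other settings, here and below, therefore stand without one. In the siRNA comparison the change of the sum, 0.33, was 0.45 when centred on length and -0.12 without Myh3, so its direction rested on that gene. One member (1), Myh6, passed the threshold downwards with a pseudocount of 0.1 (-0.62) or 0.01 (-0.88). No member changed direction under the pseudocounts. The share of Myh3 was 69.1% in MT over members with at least 1 FPKM, and 93.8% in si-NC and 95.6% in si-hnRNPL likewise. MB had no member at 1 FPKM and gave no value for that setting. By the fragment numbers implied by interval widths the share was 94.4% in si-NC and 95.6% in si-hnRNPL. Such numbers fall for a member whose fragments are assigned less surely, so they are not a separate measure of composition. No paired analysis was possible because each condition had 1 library.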
